A study of Homo sapiens with 12 samples.

Results

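The HOXB genes are the homeobox genes of the HOXB cluster on human chromosome 17. The array table named 10 of them (HOXB1, HOXB2, HOXB3, HOXB4, HOXB5, HOXB6, HOXB7, HOXB8, HOXB9 and HOXB13) among 17958 genes. Each was represented by the probe set that named no other gene and had the highest mean over 12 arrays, and each had exactly 1 such probe set, so this choice removed none. The probe sets were thus chosen by that mean, which is given here only as a description. The family was taken up with earlier results of these data known, among them the fall of HOXB6.

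HOX genes encode transcription factors that bind DNA through a homeodomain and give cells their position along the body axis. They lie in clusters in which gene order follows the order of expression from head to tail, and their chromatin is held active by Trithorax-type complexes and silent by Polycomb complexes. Adult epithelia and tumours keep part of this code, and several HOXB genes have been studied in breast cancer.

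BT549 is a human breast cancer cell line without the oestrogen receptor and with mesenchymal traits. Total RNA was measured on Affymetrix arrays in 4 groups of 3 arrays. All cells were transfected for 72 hours with control siRNA or with a pool of siRNAs against c-Jun, the AP-1 subunit encoded by JUN. Either vehicle or TNFα, an inflammatory cytokine, was then given for 6 hours. The groups were control siRNA with vehicle, control siRNA with TNFα, c-Jun siRNA with vehicle and c-Jun siRNA with TNFα. All of them represent 1 cell line. Nothing in the labels states that the arrays of a group came from separate cultures, so each p-value reflects only the spread among these samples, which may be technical.

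Values are log2 expression as deposited. Array medians, taken over all 33297 probe sets, lay between 5.62 and 5.68. The median 12-array mean of the 17958 genes was higher, at 6.97. Under vehicle, JUN averaged 10.35 ± 0.0052 (SD, n = 3) in control cells and 9.83 ± 0.021 after c-Jun siRNA, so 69.5% of the signal remained. Under TNFα it averaged 11.07 ± 0.041 and 10.36 ± 0.032, so 61.1% remained. JUN with c-Jun siRNA and TNFα therefore lay at about the level of control cells given vehicle. The 6 mesenchymal markers examined averaged between 9.78 (CDH2) and 12.73 (CD44), while ESR1 (4.38), PGR (3.72), CDH1 (4.87) and EPCAM (4.20) lay below the array medians. Of the other 3 genes listed as absent or not amplified in the line, KRT19 (5.37) lay below the medians too. KRT8 (6.03) and ERBB2 (8.81) lay above them, though KRT8 was below the median of the genes. The summed log2 level of 7 luminal epithelial markers moved with TNFα, from 42.78 to 43.35 down to 40.64 to 40.73 with control siRNA and from 43.20 to 44.01 down to 41.58 to 42.06 with c-Jun siRNA. Of these markers, GATA3 (-1.33), FOXA1 and KRT18 were lower with TNFα under control siRNA. Marker sums moved with c-Jun siRNA too. With TNFα the luminal sum was higher with c-Jun siRNA than with control siRNA, while with vehicle the ranges overlapped. The 6 mesenchymal markers summed under vehicle to 68.66 to 68.69 with control siRNA and 68.07 to 68.21 with c-Jun siRNA. Under TNFα they summed to 68.7 to 68.75 and 68.25 to 68.42. The part of these shifts in the HOXB results was not tested. The 5 measured leukocyte markers summed to 26.00 to 26.65 over all 12 arrays, and the 5 endothelial markers to 20.30 to 20.90. In bulk RNA, fewer cells that express a gene and less RNA per cell cannot be told apart.

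The locus also encodes small RNAs, and 2 of them are shown because they lie among the HOXB genes and members of both families are known to act on HOX transcripts. MIR10A lies between HOXB4 and HOXB5, inside the long HOXB3 gene model, and MIR196A1 lies between HOXB9 and HOXB13. The mature sequences below come from RefSeq (GRCh38.p14), with the seed, bases 2 to 8, in capitals. The mature miR-10a-5p is at chr17:48579904-48579926 and the mature miR-196a-5p is at chr17:48632532-48632553, both on the minus strand.
hsa-miR-10a-5p: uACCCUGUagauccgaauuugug
hsa-miR-196a-5p: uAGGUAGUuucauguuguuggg
The seeds differ. The same mature miR-196a-5p is also encoded by MIR196A2 in the HOXC cluster on chromosome 12.

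TNFα lowered 8 of the 10 HOXB genes in cells with control siRNA and raised none. The fall ran from HOXB2 through HOXB8 without a gap and included HOXB13, while HOXB1 and HOXB9 were not called. A gene was called at a Benjamini-Hochberg adjusted p under 0.05 in a limma fit over all 17958 genes. By that rule 21.9% of all genes were lower and 13.8% were higher. The median log2 fold change was -0.80 over the 10 HOXB genes and -0.023 over all genes. In each of the 8 genes, all 3 arrays with TNFα lay below all 3 arrays with vehicle, as did those of 27.6% of all genes. No HOXB gene was higher at an unadjusted limma p under 0.05 either.

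**Figure D1:**
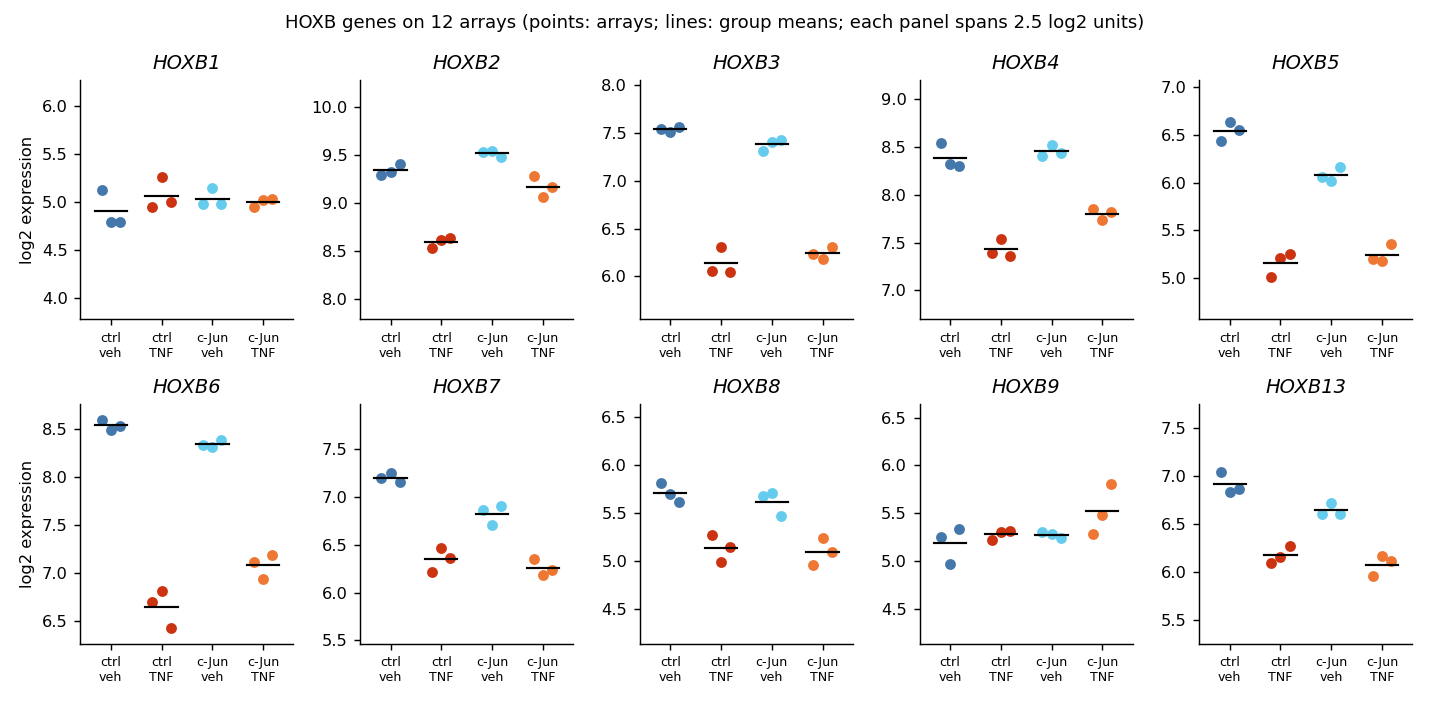
Log2 expression of each HOXB gene on the 12 arrays, in chromosomal order (points are arrays, lines are group means, and each panel spans 2.5 log2 units; ctrl is control siRNA and veh is vehicle). HOXB2 to HOXB8 and HOXB13 were lower with TNFα under both siRNAs, whereas the HOXB1 and HOXB9 points overlapped.

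Among the genes at the head end of the cluster, HOXB1, which specifies a hindbrain segment, read 5.13, 4.80 and 4.80 with control siRNA and vehicle. It read 4.95, 5.26 and 5.00 with TNFα. These arrays overlapped, with a log2 fold change of 0.16 (95% interval -0.049 to 0.37, adjusted p = 0.248 in limma). Without replicate 1 of control siRNA with vehicle, the value was 0.27 (adjusted p = 0.0374).

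HOXB2, also a hindbrain gene, read 9.29, 9.32 and 9.40 with vehicle and 8.53, 8.61 and 8.64 with TNFα. The TNFα arrays were all lower, and 59.5% of the vehicle signal remained (log2 fold change -0.75 ± 0.051 SE, limma adjusted p = 9.76e-10). HOXB3, which acts in the hindbrain and in blood progenitors, read 7.54, 7.51 and 7.56 with vehicle. With TNFα it read 6.06, 6.31 and 6.05, and the groups lay far apart. Its signal dropped to 38.0% (log2 fold change -1.40 ± 0.073 SE, limma adjusted p = 2.26e-11).

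HOXB4, known for expanding blood stem cells, read 8.54, 8.32 and 8.30 with vehicle and 7.39, 7.54 and 7.36 with TNFα. Its signal dropped to 51.6% (log2 fold change -0.96 ± 0.066 SE, limma adjusted p = 1.23e-09). In RefSeq the HOXB3 gene model extends over HOXB4, and which transcripts each probe set reads is not given in the sources used here.

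HOXB5, which acts in lung branching and enteric neural crest, read 6.43, 6.63 and 6.55 with vehicle. With TNFα it read 5.01, 5.21 and 5.25, all lower and all below the array medians. Its signal dropped to 38.4% (log2 fold change -1.38 ± 0.085 SE, limma adjusted p = 2.31e-10).

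HOXB6, a mid-cluster gene, had the largest TNFα response of the family. It read 8.59, 8.49 and 8.53 with vehicle and 6.69, 6.81 and 6.43 with TNFα, so the groups did not come near each other. The signal dropped to 26.9%, a 3.72-fold fall (log2 fold change -1.89 ± 0.082 SE, limma adjusted p = 1.35e-12). Of all 17958 genes, 5 had a lower log2 fold change in this comparison.

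HOXB7, a gene described in breast tumour cells as an inducer of mesenchymal traits, read 7.20, 7.24 and 7.15 with vehicle. With TNFα it read 6.21, 6.47 and 6.36, all lower. Its signal dropped to 55.3% (log2 fold change -0.85 ± 0.077 SE, limma adjusted p = 4.96e-08). HOXB8, known for blocking myeloid differentiation, read 5.82, 5.70 and 5.62 with vehicle and 5.27, 4.99 and 5.15 with TNFα. It kept 67.1% of its signal (log2 fold change -0.57 ± 0.095 SE, limma adjusted p = 8.72e-05), the smallest of the 8 falls. The HOXB8 values lie near and below the array medians.

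At the tail end, HOXB9, which acts with its paralogues in the mammary gland, read 5.26, 4.98 and 5.33 with vehicle and 5.22, 5.30 and 5.32 with TNFα. The arrays overlapped, and the log2 fold change was 0.092 (95% interval -0.14 to 0.33, limma adjusted p = 0.601). HOXB13, a prostate gene also used in breast cancer expression signatures, read 7.04, 6.83 and 6.87 with vehicle. With TNFα it read 6.09, 6.15 and 6.27, all lower. Its signal dropped to 59.8% (log2 fold change -0.74 ± 0.079 SE, limma adjusted p = 4.64e-07).

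The probe sets differ in sequence, so their levels were not ordered against each other. As a guide to the lower end of the scale, 335 olfactory receptor genes, which this cell type is not known to use, had a median 12-array mean of 3.67 and a 95th percentile of 4.51. HOXB1 lay above 97.9% of them, HOXB8 and HOXB9 above 99.4%, HOXB5 above 99.7% and the other 6 above all of them. The intervals of HOXB1 and HOXB9 therefore come from probe sets in the lower part of the scale, as does the HOXB8 fall. HOXB5 reached that level with TNFα, averaging 5.16 with control siRNA and 5.25 with c-Jun siRNA.

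**Figure D2:**
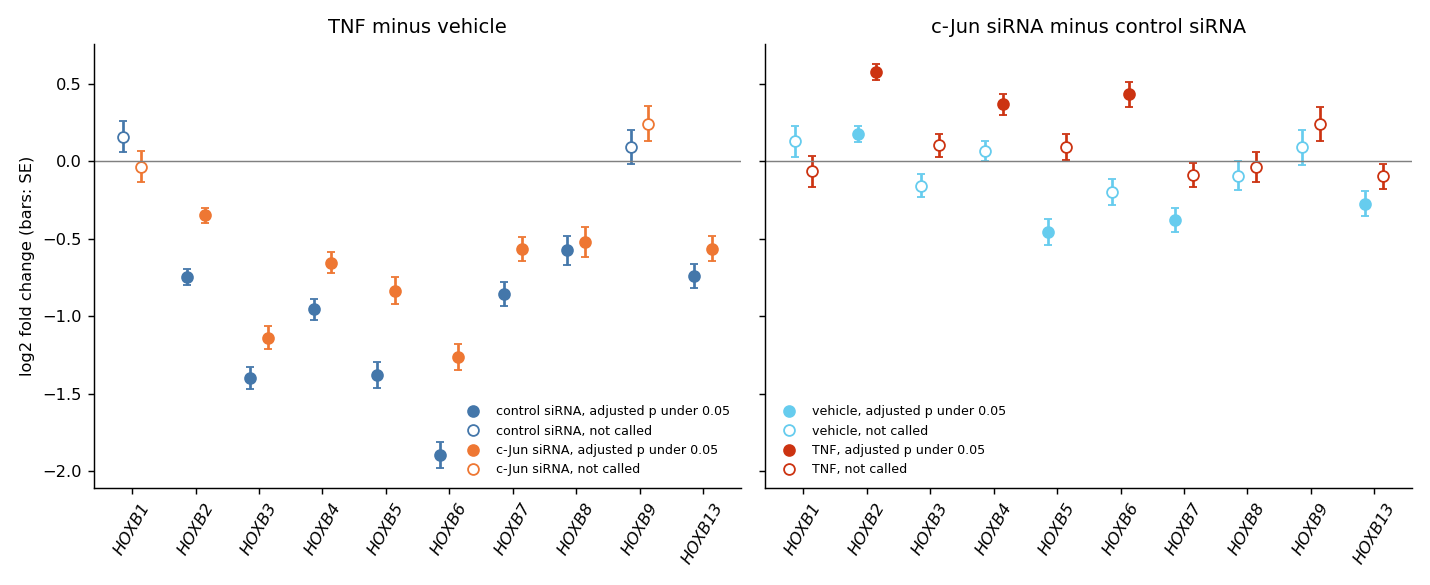
Log2 fold changes of the 10 HOXB genes (points; bars are SE from limma) for TNFα against vehicle under each siRNA on the left and for c-Jun siRNA against control siRNA under each treatment on the right; filled points have an adjusted p under 0.05. The HOXB6 fall with TNFα is -1.89 with control siRNA and -1.26 with c-Jun siRNA, and HOXB2, HOXB4 and HOXB6 are the 3 filled points above 0 for c-Jun siRNA with TNFα.

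With c-Jun siRNA, TNFα again lowered 8 of the 10 HOXB genes and raised none, against 18.3% of all genes lower and 11.3% higher. The 8 genes were HOXB2 to HOXB8 and HOXB13, and in each the arrays of the groups did not overlap, as in 23.6% of all genes in that direction. The median log2 fold change was -0.56 over the 10 genes and -0.016 over all genes. At an unadjusted limma p under 0.05, 1 gene (HOXB9) was higher. This comparison shares no array with that in control cells.

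HOXB6 read 8.33, 8.31 and 8.38 with vehicle and 7.11, 6.94 and 7.18 with TNFα. The groups lay apart, and 41.7% of the signal remained (log2 fold change -1.26 ± 0.082 SE, limma adjusted p = 6.03e-10). HOXB3 read 7.31, 7.40 and 7.42 with vehicle and 6.23, 6.18 and 6.31 with TNFα. It fell by 1.14 on the log2 scale to 45.5% (± 0.073 SE, limma adjusted p = 5.6e-10), close below HOXB6 in size.

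HOXB5 read 6.06, 6.02 and 6.17 with vehicle and 5.21, 5.18 and 5.36 with TNFα, with no overlap. It kept 56.1% (log2 fold change -0.83 ± 0.085 SE, limma adjusted p = 3.17e-07). HOXB4 read 8.40, 8.52 and 8.44 with vehicle and 7.85, 7.74 and 7.81 with TNFα, again apart. It kept 63.6% (log2 fold change -0.65 ± 0.066 SE, limma adjusted p = 2.95e-07).

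HOXB2 read 9.53, 9.54 and 9.48 with vehicle and 9.28, 9.06 and 9.17 with TNFα, the smallest fall of the 8 under this siRNA. It kept 78.5% (log2 fold change -0.35 ± 0.051 SE, limma adjusted p = 2.63e-05). With the position column in the array names as a fixed block, HOXB2 was no longer called (log2 fold change -0.28, adjusted p = 0.0825). The arrays of c-Jun siRNA with vehicle all carry position column 5 and those with TNFα columns 7 and 9, so within these 2 groups column and TNFα cannot be told apart.

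HOXB7 read 6.86, 6.71 and 6.90 with vehicle and 6.35, 6.19 and 6.23 with TNFα. HOXB13 read 6.60, 6.71 and 6.60 with vehicle and 5.95, 6.16 and 6.11 with TNFα. Neither gene's groups overlapped, and 67.6% of the signal remained in both (log2 fold change -0.56 in each, limma adjusted p = 1.25e-05 for HOXB7 and 1.7e-05 for HOXB13). HOXB8 read 5.68, 5.71 and 5.47 with vehicle and 4.96, 5.24 and 5.10 with TNFα, and it kept 69.7% (log2 fold change -0.52, limma adjusted p = 0.000298).

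HOXB1 read 4.98, 5.14 and 4.98 with vehicle and 4.95, 5.02 and 5.04 with TNFα, with a log2 fold change of -0.033 (95% interval -0.24 to 0.18). HOXB9 read 5.30, 5.29 and 5.24 with vehicle and 5.28, 5.48 and 5.80 with TNFα. Its arrays overlapped and its log2 fold change was 0.24 (95% interval 0.0074 to 0.48, limma adjusted p = 0.121). Without replicate 1 of c-Jun siRNA with TNFα the HOXB9 value was 0.36 (adjusted p = 0.0199). That fit kept replicate 3, which is named as a second run of replicate 1 and read 5.80 against 5.28.

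The TNFα response differed between the siRNAs for 3 HOXB genes, all of them with a smaller fall under c-Jun siRNA. The difference between responses, tested as the interaction in the same limma fit, was positive in 9 of the 10 genes. It was called higher in 3 and lower in none, against 1.88% and 3.59% of all genes. At an unadjusted limma p under 0.05, 6 were higher and 0 lower. The shares of all genes at that unadjusted threshold and with a positive difference were not counted. The counts of 6 and 9 therefore stand as descriptions only. The median difference was 0.28 over the HOXB genes and 0.0066 over all genes.

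HOXB6 had the largest difference, 0.63 ± 0.12 SE (limma adjusted p = 0.00195), as its response went from -1.89 to -1.26. HOXB5 followed with 0.55 ± 0.12 SE (limma adjusted p = 0.00917) and HOXB2 with 0.40 ± 0.072 SE (limma adjusted p = 0.00175). As a share of the log2 response in control cells, the response under c-Jun siRNA was 46.6% for HOXB2, 60.4% for HOXB5 and 66.7% for HOXB6. With the position column as a fixed block the HOXB5 difference kept its size, at 0.58, but was not called (adjusted p = 0.0667). HOXB5 averaged 6.54 and 6.08 with vehicle under control and c-Jun siRNA, and 5.16 and 5.25 with TNFα. The TNFα values lie in the lower part of the scale, and whether that level limited the HOXB5 falls was not tested.

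The differences of HOXB4 (0.30, 95% interval 0.11 to 0.50), HOXB7 (0.29, 0.060 to 0.52) and HOXB3 (0.26, 0.043 to 0.48) did not pass, with limma adjusted p-values of 0.0726, 0.161 and 0.19. HOXB4 passed with the dimmest 30% (adjusted p = 0.0494) or 50% (0.0358) of genes left out and with array weights (0.0391). Without replicate 2 of control siRNA with TNFα, both HOXB3 (0.34) and HOXB4 (0.36) passed, which made 5 called genes. With the position column as a fixed block none of HOXB4, HOXB3 and HOXB7 passed. Their values there were 0.21, 0.29 and 0.26 (limma adjusted p = 0.525, 0.405 and 0.504). HOXB13 (0.18, 95% interval -0.060 to 0.41), HOXB9 (0.15, -0.18 to 0.48), HOXB8 (0.054, -0.23 to 0.34) and HOXB1 (-0.19, -0.49 to 0.10) had intervals that include 0.

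**Figure D3:**
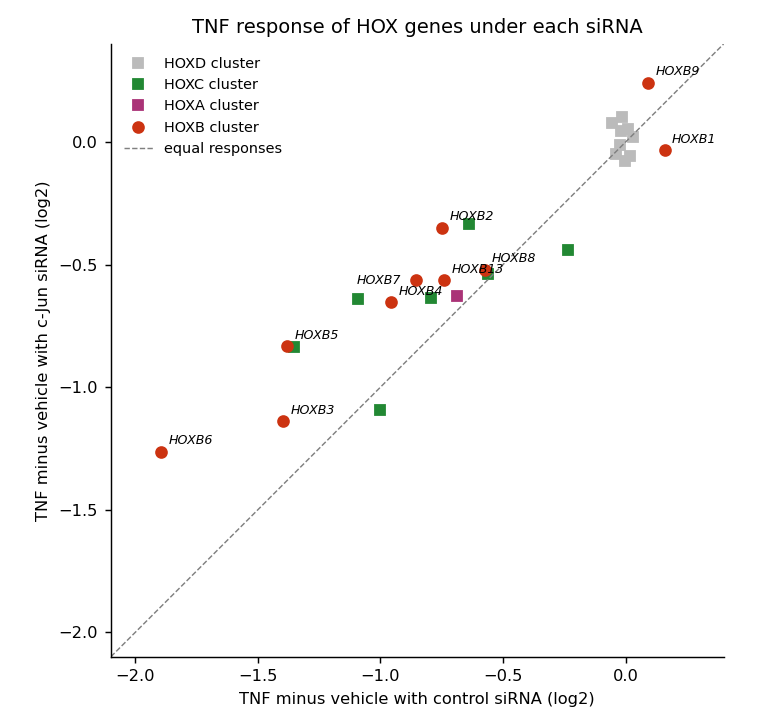
TNFα response (log2 fold change) with control siRNA on the x axis and with c-Jun siRNA on the y axis for the HOX genes with a single-symbol probe set; the dashed line marks equal responses. HOXB6, HOXB5 and HOXB2, whose differences were called, lie above the line by 0.63, 0.55 and 0.40, and the 9 HOXD genes lie near the origin.

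The effect of c-Jun siRNA was next compared under each treatment. With vehicle, c-Jun siRNA lowered HOXB5, HOXB7 and HOXB13 and raised HOXB2, that is 3 of 10 genes lower and 1 higher. Of all genes 14.5% were lower and 14.4% higher, or 10.7% and 16.8% when each array was centred on its median. The median log2 fold change was -0.12 over the HOXB genes and -0.0073 over all genes. These comparisons reuse the arrays of the TNFα comparisons, so their values are set side by side and are no further evidence.

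HOXB5 averaged 6.54 ± 0.10 (SD, n = 3) with control siRNA and 6.08 ± 0.076 with c-Jun siRNA. Its log2 fold change was -0.45 ± 0.085 SE (limma adjusted p = 0.00039), and 73.0% of the signal remained. HOXB7 averaged 7.20 ± 0.046 and 6.82 ± 0.10, with a log2 fold change of -0.38 ± 0.077 SE (limma adjusted p = 0.000881). In both genes the arrays of the 2 groups did not overlap. In all, 5 HOXB genes were separated in this direction, as were 20.2% of all genes.

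HOXB13 averaged 6.91 ± 0.12 (SD, n = 3) with control siRNA and 6.64 ± 0.064 with c-Jun siRNA (log2 fold change -0.27, limma adjusted p = 0.0134). HOXB2 averaged 9.34 ± 0.057 and 9.52 ± 0.030 (log2 fold change 0.18, limma adjusted p = 0.0124). Both changes were small, and their calls were lost when single arrays were left out. Without replicate 1 of control siRNA with vehicle, HOXB13 stood at -0.21 (adjusted p = 0.0828) and HOXB2 at 0.15 (adjusted p = 0.0606). Without replicate 1 of c-Jun siRNA with vehicle, HOXB13 stood at -0.25 (adjusted p = 0.052). With the position column as a fixed block HOXB5 alone of the 4 genes was called (adjusted p = 0.0147), and HOXB7 (0.0526), HOXB13 (0.188) and HOXB2 (0.337) were not. Within column 5, which holds 3 arrays of c-Jun siRNA and 1 of control siRNA, the differences were -0.47 for HOXB5, -0.33 for HOXB7, -0.23 for HOXB13 and 0.11 for HOXB2.

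HOXB6 averaged 8.54 ± 0.051 (SD, n = 3) with control siRNA and 8.34 ± 0.037 with c-Jun siRNA. All 3 arrays with c-Jun siRNA were lower, yet the log2 fold change of -0.20 did not pass (95% interval -0.37 to -0.026, limma adjusted p = 0.0826). When the fit held only these 2 groups it did (adjusted p = 0.00704), as it did without replicate 3 of control siRNA with TNFα (0.0285) and with the dimmest 50% of genes left out (0.0412). HOXB3 (-0.16), HOXB8 (-0.092), HOXB4 (0.066), HOXB9 (0.090) and HOXB1 (0.13) were not called.

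With TNFα, c-Jun siRNA raised HOXB2, HOXB6 and HOXB4 and lowered no HOXB gene, also at an unadjusted limma p under 0.05. By the same rule 14.1% of all genes were higher and 14.4% lower. The median log2 fold change was 0.097 over the HOXB genes and 0.0011 over all genes. HOXB2 averaged 8.59 ± 0.057 (SD, n = 3) with control siRNA and 9.17 ± 0.11 with c-Jun siRNA, a 1.49-fold rise (log2 fold change 0.58 ± 0.051 SE, limma adjusted p = 7.01e-08). HOXB6 averaged 6.64 ± 0.20 and 7.08 ± 0.13, so it stood at 135% (log2 fold change 0.43 ± 0.082 SE, limma adjusted p = 0.000424). HOXB4 averaged 7.43 ± 0.096 and 7.80 ± 0.057, so it stood at 129% (log2 fold change 0.37 ± 0.066 SE, limma adjusted p = 0.000272).

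In these 3 genes every array with c-Jun siRNA lay above every array with control siRNA, as in 19.1% of all genes. The values within column 7 were 0.44, 0.32 and 0.29 for HOXB2, HOXB6 and HOXB4, and within column 9 they were 0.69, 0.46 and 0.44. HOXB5 (0.092), HOXB3 (0.10), HOXB7 (-0.088), HOXB13 (-0.096), HOXB8 (-0.038) and HOXB1 (-0.065) were not called. HOXB9 was not called either (0.24, 95% interval 0.0054 to 0.48), though without replicate 1 of c-Jun siRNA with TNFα its value was 0.36 (adjusted p = 0.0216). Replicate 3, named as a second run of replicate 1, was kept there too.

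For the 3 genes whose TNFα response differed, the c-Jun siRNA values under vehicle and TNFα were -0.45 and 0.092 for HOXB5, -0.20 and 0.43 for HOXB6, and 0.18 and 0.58 for HOXB2. Differences between these genes were not tested.

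Genes on either side of the cluster had TNFα responses of mixed sign, all smaller in size than those of the 8 called HOXB genes, with no test of that difference. With c-Jun siRNA the margin was small, with COPZ2 at -0.341 and HOXB2 at -0.349. Among the 10 nearest measured protein-coding genes on each side, TNFα with control siRNA raised 4 of 20 and lowered 1, against 13.8% and 21.9% of all genes, with log2 fold changes between -0.28 (SCRN2) and 0.41 (UBE2Z). The nearest measured neighbours, SKAP1 beyond HOXB1 and TTLL6 beyond HOXB13, were not called (0.096 and 0.048). Their 12-array means of 3.38 and 3.84 lie near the olfactory receptor median of 3.67, so a fall could hardly be seen there. These values therefore do not show where along the chromosome the TNFα response ends. With c-Jun siRNA 4 rose and 2 fell, against 11.3% and 18.3% of all genes. Quantile normalisation gave 5 and 3 there, and centring on array medians gave 4 and 3. None of the 20 was called in the interaction in limma (1 higher and 2 lower at an unadjusted p under 0.05). Neighbours were taken from RefSeq gene order (GRCh38.p14), and many lie far off. On the HOXB1 side SKAP1 lies 83.5 kb away and the others 405 to 687 kb. On the HOXB13 side the distances run from 33.5 to 482 kb.

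**Figure D4:**
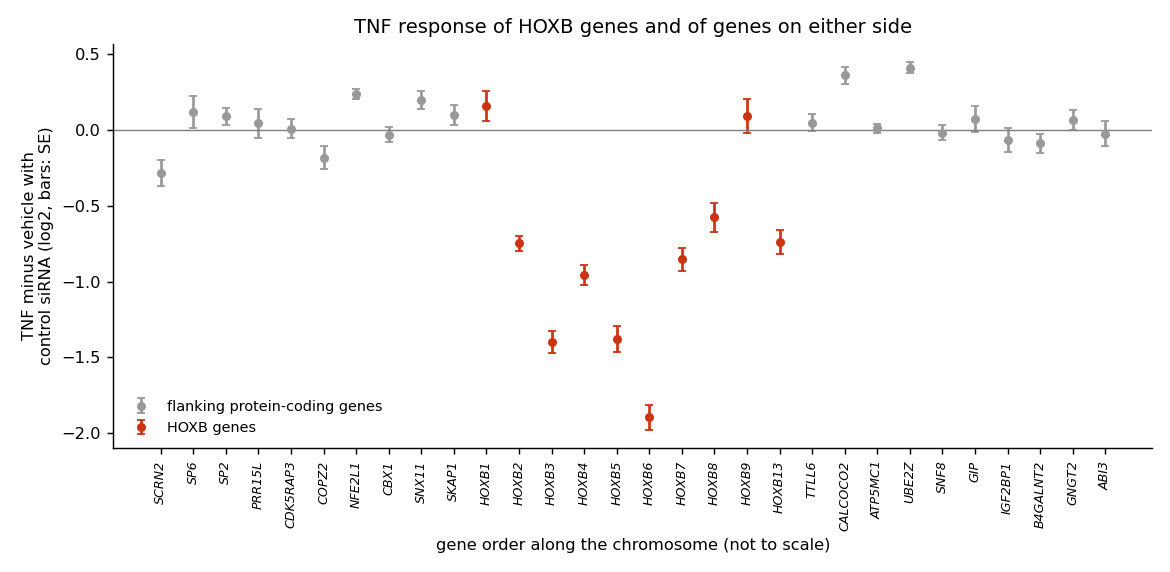
TNFα response with control siRNA (log2 fold change, bars are SE from limma) of the 10 HOXB genes and of 20 measured protein-coding genes around them, in chromosomal order and not to scale. HOXB2 to HOXB8 and HOXB13 lie between -1.89 and -0.57, and the flanking genes lie between -0.28 and 0.41. Some flanking genes, among them SKAP1 and TTLL6 (12-array means 3.38 and 3.84), read at the low end of the scale.

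Of 9 non-coding and small genes of the locus, 4 were measured and none was called by limma in any comparison, also at an unadjusted p under 0.05. HOXB-AS3, an antisense transcript of the mid-cluster region, averaged 5.29 ± 0.26 (SD, n = 3) under vehicle in control cells and 5.28 ± 0.082 under TNFα (95% interval of the log2 fold change -0.22 to 0.20). MIR10A averaged 3.10 and 3.04, MIR196A1 4.76 and 4.78, and PRAC1, a small gene between HOXB9 and HOXB13, 3.84 and 3.84. MIR10A and PRAC1 read well below the array medians, and whether these probe sets read the mature miRNAs printed above was not tested.

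The HOXC genes, on chromosome 12, gave a like direction. All 7 with a single-symbol probe set were lower with TNFα under both siRNAs, with medians of -0.79 and -0.64. Of all genes, 21.9% were lower in this comparison with control siRNA and 18.3% with c-Jun siRNA. Under control siRNA HOXC11 (-1.35), HOXC9 (-1.09), HOXC13 (from a mean of 8.49 to 7.49) and HOXC8 (-0.79) had the largest falls. The interaction was called for HOXC11 (0.52, limma adjusted p = 0.00317) and HOXC9 (0.45, limma adjusted p = 0.0144), both with smaller falls under c-Jun siRNA. Of all genes, 1.88% were called higher and 3.59% lower in the interaction. HOXC8 was higher with c-Jun siRNA under vehicle (0.41) and under TNFα (0.57), where HOXC9 (0.36) and HOXC11 (0.33) were higher too. Of all genes, 14.4% were higher with c-Jun siRNA under vehicle and 14.1% under TNFα. None of the 9 HOXD genes was called by limma in any comparison, also at an unadjusted p under 0.05, and their 12-array means of 3.76 to 6.10 lie around and below the array medians. HOXA2, the single HOXA gene of 11 with its own probe set, was lower with TNFα (-0.69 with control siRNA and -0.63 with c-Jun siRNA). The difference between clusters was not tested.

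HOX proteins bind DNA together with TALE homeodomain partners. The list held 9 of these and PBXIP1, a PBX-binding protein without a homeodomain, and 9 of the 10 genes were measured. Shares of all genes to read this and the following lists against are 13.8% higher and 21.9% lower for TNFα with control siRNA, 11.3% and 18.3% with c-Jun siRNA, 14.4% and 14.5% for c-Jun siRNA with vehicle, and 14.1% and 14.4% with TNFα. TNFα with control siRNA lowered 4 and raised 1, the largest falls being PBX3 (-0.60), PKNOX2 (-0.38) and PBX2 (-0.34). With c-Jun siRNA it also lowered 4 and raised 1, among them PBX3 (-0.48) and MEIS2 (-0.46). MEIS2 was the single gene of the list called in the interaction (-0.62 ± 0.11 SE, limma adjusted p = 0.00165), with the opposite sign to HOXB2, HOXB5 and HOXB6. c-Jun siRNA lowered 6 of the 9 under vehicle and 5 under TNFα, MEIS2 most under TNFα (-0.95). Centring each array on its median gave 4 rather than 5 lower under TNFα. PBXIP1 is among the lowered genes in all 4 of these counts (-0.27, -0.21, -0.40 and -0.34), as are PBX2 and PBX3. The medians of the list were -0.15, -0.17, -0.27 and -0.095 for TNFα under control and c-Jun siRNA and for c-Jun siRNA under vehicle and TNFα.

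Among 14 chromatin regulators that keep HOX genes active, TNFα with control siRNA raised 4 and lowered 2. MLLT3, a partner of the histone methyltransferase DOT1L, rose by 0.88, KDM6B, which removes the Polycomb mark, by 0.54 and DOT1L by 0.48. With c-Jun siRNA 3 rose and 2 fell, with KDM6B at 0.36 and DOT1L at 0.31. With quantile normalisation or centring on array medians, 2 rather than 3 were called higher there. Quantile normalisation gave 5 rather than 4 higher with control siRNA. MLLT3 was called in the interaction (-0.70, limma adjusted p = 0.00013). c-Jun siRNA lowered 5 under vehicle and 6 under TNFα and raised none, although centring each array on its median gave 4 lower and 1 higher under vehicle. The medians were 0.094, 0.072, -0.073 and -0.072 in the same order of comparisons.

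Among 12 of 16 Polycomb genes measured, TNFα lowered 6 and raised none under each siRNA, led with control siRNA by CBX2 (-0.64), PCGF2 (-0.62), BMI1 (-0.52) and CBX7 (-0.49), all parts of Polycomb repressive complex 1. Of the methyltransferases of the other Polycomb complex, EZH1 was lower with control siRNA (-0.25, limma adjusted p = 0.000295) and EZH2 was not called (-0.062), nor was the insulator protein CTCF (-0.075). PCGF2 was called in the interaction (0.27, limma adjusted p = 0.0119). With c-Jun siRNA under vehicle 5 were lower and none higher, or 3 and 1 after centring, and under TNFα 2 were lower and 2 higher. The medians were -0.16, -0.099, -0.097 and -0.011.

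Retinoic acid is a classical inducer of the head-end HOXB genes, and 16 of 18 retinoid genes were measured. TNFα with control siRNA lowered 6 and raised 2, among them the receptors RXRA (-0.98), RARA (-0.61) and RARG (-0.47), and the retinaldehyde reductase DHRS3 (0.46). With c-Jun siRNA it lowered 5 and raised 2, with DHRS3 at 1.02 and RARA at -0.93. With quantile normalisation or centring on array medians, 1 retinoid gene rather than 2 was called higher there. DHRS3 rose by 2.34 with c-Jun siRNA under vehicle and by 2.90 under TNFα, where 6 and 5 other retinoid genes were lower and RDH10 was the other higher one (0.61 and 0.43). DHRS3 (0.56), RARA (-0.32) and RDH10 (-0.18) were called in the interaction. The medians were -0.088, -0.081, -0.015 and -0.018.

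Of 11 genes described elsewhere as targets of HOXB7 or HOXB9, 8 were measured. TNFα lowered 4 and raised 2 under each siRNA. CXCL8, a chemokine and a well-known TNFα target, rose by 5.59 in control cells and by 3.32 after c-Jun siRNA, and the growth factor NRG1 by 1.36 and 0.49. VEGFA fell by 0.70 and 0.73. c-Jun siRNA with vehicle raised CXCL8 (2.47), NRG1 (0.84) and NRG2 (0.27) and lowered none. With TNFα it raised CXCL8 (0.19) and lowered TGFB2 (-0.36). CXCL8 (-2.27) and NRG1 (-0.87) were called in the interaction. The medians were -0.17, -0.16, 0.018 and -0.044.

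Over the 12 arrays HOXB6 had the widest range of group means in the family, 1.90 log2 units, and was used to describe likeness of pattern. Pearson's r with HOXB6 was 0.988 for HOXB3, 0.973 for HOXB4, 0.955 for HOXB5, 0.909 for HOXB7, 0.898 for HOXB13, 0.885 for HOXB8 and 0.851 for HOXB2. It was -0.265 for HOXB1 and -0.355 for HOXB9. Among 830 genes with a 12-array mean of at least 6 and group means spanning at least 1 log2 unit, the 10 most like HOXB6 were TUBA3FP, AFAP1L2, HOXB3, PCDH20, REEP1, PACSIN3, STC2, GSE1, HOXC11 and HOXC9, with r from 0.989 to 0.978. HOXB4 ranked 14. An r above 0.9 was found for 79 of the 830 genes and an r under -0.9 for 217. These values share the 12 arrays and the 4 group means, so they describe these arrays and carry no test.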

How the data were processed

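BT549 total RNA, labelled with biotin, was hybridised to 12 arrays, 3 per group, with groups and replicate numbers from the sample labels. The deposited values are log2 expression per probe set. Per the submitters' processing notes, Affymetrix Expression Console 1.1 and PLIER were among the authors' tools, with no role given. The log base was inferred from the range of 2.27 to 14.0, and quartiles differed between arrays by at most 0.061, so no further normalisation was applied. The genome build behind the probe annotation is not given in the sources used here. The number of arrays limits the precision.

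Of 33297 probe sets, 19181 had 1 gene symbol, 2055 several and 12061 none. Of those with 1 symbol, 19143 were renamed through their Entrez identifier in a RefSeq gene table (GRCh38.p14). For the 895 genes with more than 1 probe set the one with the highest 12-array mean was kept, giving 17958 genes with no filter on dim ones.

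limma 3.58.1 in R 4.3.3 fitted group means over the 12 arrays together, with a mean-variance trend, 8 residual degrees of freedom and 9.29 prior ones. Tests were two-sided with Benjamini-Hochberg adjustment over all genes. Errors of fold changes are SE from this fit, errors of group means are SD over 3 arrays, and intervals are at 95%, unadjusted. The code was tested on simulated data. Python 3.11.15, pandas 2.3.3 and matplotlib 3.10.9 were used for tables and plots.

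The HOXB genes, the other gene lists and the alternatives were chosen with earlier results of these data known. Named genes were all HOXB genes, JUN, up to 4 called members per list and comparison with the largest absolute change, up to 3 called flanking genes per comparison and the 10 genes most like HOXB6. The 2 nearest flanking genes, EZH1, EZH2, CTCF and list members given in a comparison where the rule did not take them were chosen after their values were seen.

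Deviations from group means of same-numbered arrays correlated between -0.059 and 0.088 over 18 pairs, with none over 0.1, so replicate numbers were not taken to pair samples. The array names give a position column (5, 7 or 9), and 1 array, c-Jun siRNA with TNFα replicate 3, is named as a second run of replicate 1. Over genes the SD of the difference between these 2 arrays was 0.121, within the 0.119 to 0.142 of the replicate pairs. The alternatives changed the scaling between arrays, the handling of dim genes and low values, the choice of probe set, the variance model, the threshold, the groups in the fit and the blocks (replicate number, position column), or left out 1 array.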

Additional observations from a re-analysis of the deposited data

Results flagged for a closer look

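The TNFα response of 3 HOXB genes differed between cells with control siRNA and cells with c-Jun siRNA by a test of the difference itself, the interaction in limma. The response with c-Jun siRNA minus that with control siRNA was 0.40 for HOXB2, 0.55 for HOXB5 and 0.63 for HOXB6 on the log2 scale. In each gene the fall was smaller with c-Jun siRNA, and all 3 arrays with TNFα lay below all 3 with vehicle under each siRNA. With the position column as a fixed block the HOXB5 difference was 0.58 and was not called (limma adjusted p = 0.0667), which left HOXB2 and HOXB6. Under c-Jun siRNA, however, no column holds both vehicle and TNFα arrays. Column 5 meets other columns only among the arrays of control siRNA with vehicle, where it holds 1 array. The block thus cannot separate column from the TNFα response under c-Jun siRNA, for HOXB2 and HOXB6 too. When a log2 difference of at least 0.5 was required, HOXB2 was not called. HOXB5 with TNFα read in the lower part of the scale under both siRNAs, and whether that level limited its falls was not tested.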

How the results depend on the processing

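Over 31 alternatives, no called HOXB value changed sign. Of 1465 values of single genes 1436 stayed on the same side of the threshold, 18 lost their call and 11 gained one. Some of these had little room to change. Each HOXB gene has 1 probe set, and leaving out an array outside a comparison kept its fold change. Values that were not called and stayed so count among the 1436. HOXB genes called: TNF minus vehicle with control siRNA, 8 genes, became 3 with the dimmest 50% of genes left out, where only HOXB2, HOXB4 and HOXB6 remained to be tested, and 8 to 9 with 1 array left out. HOXB genes called: TNF minus vehicle with c-Jun siRNA, 8 genes, became 3 with the same filter and 8 to 9 with 1 array left out. HOXB genes called: c-Jun siRNA minus control siRNA with vehicle, 4 genes, became 2 with that filter, 2 at an adjusted p under 0.01, 0 with a log2 fold change of at least 0.5 (the limma count without that minimum is 4), 1 with the position column as a fixed block and 2 to 5 with 1 array left out. HOXB genes called: c-Jun siRNA minus control siRNA with TNF, 3 genes, became 1 with the fold change minimum and 3 to 4 with 1 array left out. HOXB genes called: interaction (TNF response with c-Jun siRNA minus TNF response with control siRNA), 3 genes, became 2 with the position column as a fixed block, which lost HOXB5, and ranged from 3 to 5 with 1 array left out. With the fold change minimum HOXB2 lost its call in the interaction and in TNF minus vehicle with c-Jun siRNA. The fixed block also lost the latter call. Apart from the filter and the thresholds, the causes were not tested.

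With the replicate block the counts of called HOXB genes were 8, 8, 4, 3 and 3 in the same order. The second run averaged with its replicate gave the same counts. Differences within position columns turned no called value. Those within columns 5 and 9, and within column 7 for c-Jun siRNA with TNFα, were added after seeing the data.

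All genes called numbered 6416, 5320, 5183, 5116 and 983. With a log2 fold change of at least 0.5 they were 1519, 1176, 904, 858 and 315. The fixed block gave 2376 for TNF minus vehicle with c-Jun siRNA, 3448 for c-Jun siRNA with vehicle and 531 for the interaction, which also fell to 553 at an adjusted p under 0.01.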
